A study of Mus musculus with 18 samples.

Results

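The genes described here encode scavenger receptors, which bind modified lipoproteins and debris, and receptors and bridging proteins of efferocytosis, the uptake of dying cells. The 9 genes were chosen by name: Msr1, Cd36, Marco, Scarb1, Cd68, Mertk, Axl, Gas6 and Mfge8. Of these, 8 were matched among the 25918 genes of the count table, and Marco is not analysed here. The study sequenced messenger RNA from the brain cortex and from the interparietal bone, a flat bone at the back of the skull, of BALB/c mice after ischemic injury, to compare expression in brain and skull. There were 6 groups of 3 libraries: cortex at day 6, cortex at day 2 and control cortex, and skull at day 4, skull at day 2 and control skull. All groups were of the same strain, and tissue of injured animals included the ischemic and the surrounding region. The labels used here give neither the method of injury nor the age, and do not say whether controls had an operation or whether each library is a separate animal. The p-values therefore measure the spread between these libraries.

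Macrophages and microglia take up debris through scavenger receptors. Msr1 is the class A receptor for acetylated lipoprotein and other polyanions. Cd36 and Scarb1 belong to class B, and Cd36 binds oxidised lipoprotein and long-chain fatty acids, whereas Scarb1 exchanges cholesterol with high-density lipoprotein. Cd68 is a glycoprotein of the endosome and lysosome that is used as a marker of phagocytes. Dying cells expose phosphatidylserine on their surface. The secreted protein Gas6 bridges it to the receptor kinases Mertk and Axl, and the secreted protein Mfge8 bridges it to integrins on the phagocyte. In brain, microglia carry Mertk and clear apoptotic cells, and infiltrating macrophages join them after ischemia. The skull holds bone marrow, where macrophages clear neutrophils and erythroblast nuclei.

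Total counts were 13005050 to 22236424 in cortex at day 6, 17199036 to 18476057 at day 2 and 23673255 to 27654269 in control cortex. In skull they were 13142770 to 15445503 at day 4, 15113558 to 15382973 at day 2 and 13398631 to 14765111 in controls. Levels are counts scaled to library size (CPM) with TMM factors, an edgeR correction for differing RNA composition, within each tissue. Changes are log2 fold changes ± standard error, and adjusted p-values are those of edgeR's quasi-likelihood test with Benjamini-Hochberg adjustment over all genes tested, called below 0.05. The tissue labels were checked on marker genes. Summed over 5 neuronal genes, the level was 3803 to 7691 CPM across the cortex libraries and 31.8 to 508 CPM across the skull libraries. The 5 osteoblast genes in the table summed to 13.4 to 495 CPM in cortex and 21154 to 73084 CPM in skull. Within skull the libraries were uneven in tissue from outside bone. Neuronal genes summed to 67.9 to 94.0 CPM at day 4, 31.8 to 120.2 CPM at day 2 and 444 to 508 CPM in controls. The 4 choroid plexus genes summed to 387 to 2688 CPM at day 4, 75.5 to 7720 CPM at day 2 and 5.24 to 11.6 CPM in controls. The 5 skeletal muscle genes summed to 39.6 to 851 CPM at day 4, 4.14 to 707 CPM at day 2 and 394 to 2561 CPM in controls. The cortex libraries were uneven as well. Osteoblast genes summed to 118, 495 and 347 CPM at day 6, 34.8 to 95.2 CPM at day 2 and 23.0, 13.4 and 18.1 CPM in control cortex. The 5 fibroblast genes summed to 213, 699 and 464 CPM at day 6, 179 to 279.6 CPM at day 2 and 148, 74.1 and 74.0 CPM in control cortex. At day 6 both sums had the library order of Msr1, Cd36, Cd68, Mertk, Axl and Gas6, with replicate 2 highest and replicate 1 lowest. Other lists had this order too, among them microglia (548, 841 and 685 CPM), border macrophages (16.8, 40.3 and 33.4 CPM) and monocytes (27.3, 54.0 and 44.2 CPM). Neuronal sums had the reverse order (6327, 5794 and 5977 CPM). Of 4 tested genes each, 1 osteoblast and 2 fibroblast genes rose at day 6, and 0 and 1 at day 2. The part of any of these cell types in the levels of the 8 genes was not tested. In cortex at day 6, replicate 1 was the lowest of the 3 libraries for 7 of the 8 genes and replicate 2 the highest for 6. In bulk tissue, more cells of a type and more RNA per cell cannot be told apart.

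In cortex at day 6, 6 of the 8 genes rose and none fell, where 10.3% of 18151 genes tested were called, 7.93% upward and 2.39% downward. At day 2, 4 rose and 1 fell, against 24.7% of all genes called, 14.7% upward and 9.99% downward. Msr1, Cd36, Cd68 and Axl rose at both times, Mertk and Gas6 at day 6, and Mfge8 fell at day 2. The libraries of injured and control cortex did not overlap for 6 of the 8 genes at either time, against 30.9% of all genes at day 6 and 39% at day 2. The median log2 change of the 8 genes was 0.86 at day 6 and 0.50 at day 2, against -0.02 and 0.00 over all genes.

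In skull fewer of the 8 genes were called. At day 4, 1 of the 8 genes fell, Cd36, and none rose, where 10.6% of 17450 genes were called, 5.83% upward and 4.79% downward. At day 2, Msr1 rose while Cd36 and Gas6 fell, against 34.4% of all genes called, 17.8% upward and 16.6% downward, so that the share of these genes called, 3 of 8, lay near that of all genes. The libraries of injured and control skull did not overlap for 3 genes at day 4 and 4 at day 2, against 31.1% and 47.7% of all genes. The median log2 change of the 8 genes was 0.22 at day 4 and 0.05 at day 2, against 0.02 and -0.01 over all genes. The single call at day 4 is fragile: without skull day 4 replicate 3, control replicate 1 or control replicate 3 the adjusted p of Cd36 was 0.103, 0.0657 and 0.0897. Without control replicate 3 only 10 of all genes were called at day 4, against 1853 with it, and without day 4 replicate 2 or replicate 3 there were 590 and 237.

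**Figure D1:**
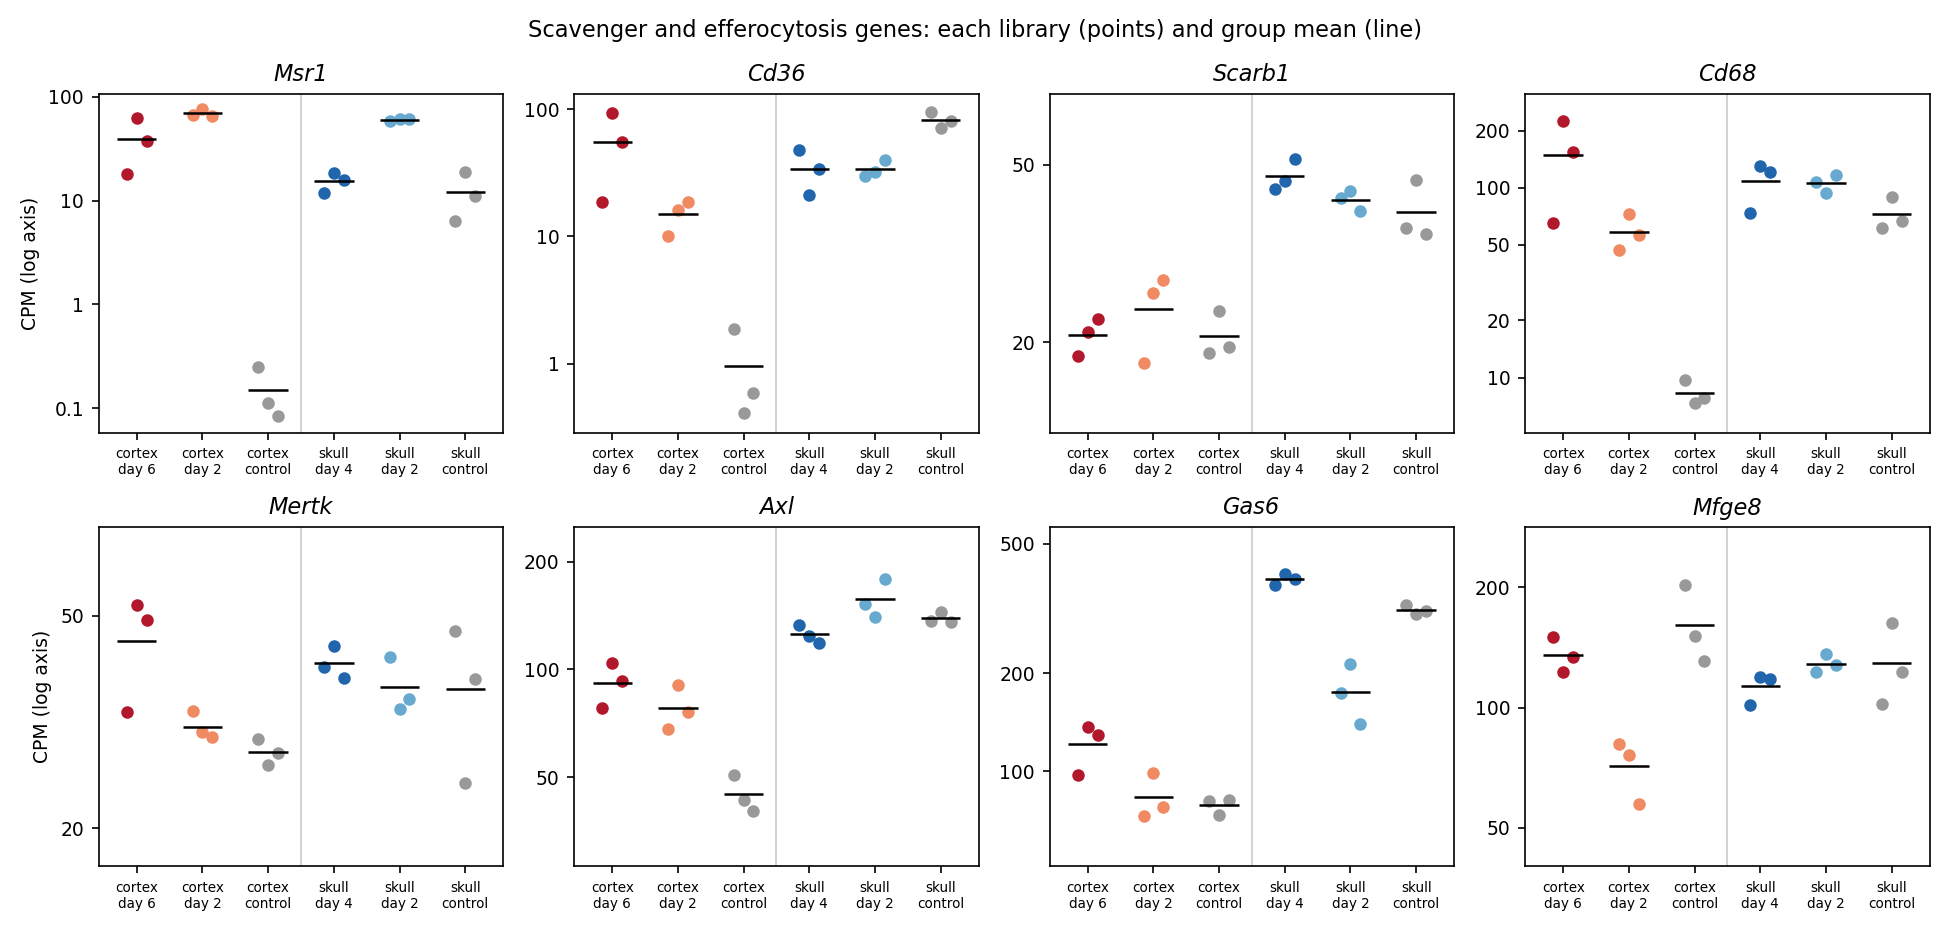
Level of each gene in CPM (log axis) in the 18 libraries. Points are libraries and lines are means of 3, with cortex left of the grey line and skull right of it. Msr1 stood at 64.6 to 76.6 CPM in cortex at day 2 and 0.0833 to 0.251 CPM in control cortex, while Cd36 was 70.7 to 95.1 CPM in control skull, above all injured skull libraries.

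Msr1, the class A scavenger receptor (chromosome 8, 39581685 to 39642673, mm10, GENCODE M21), had the largest change of the 8 genes in cortex at both times. It was at 18.1, 62.3 and 37.5 CPM in cortex at day 6, 66.2, 76.6 and 64.6 CPM at day 2 and 0.251, 0.112 and 0.0833 CPM in control cortex. The control level rests on 6, 3 and 2 counts, 11 in all. Every injured library lay far above every control library. The log2 change was 8.01 ± 0.67 at day 6 (adjusted p = 3.57e-04) and 8.82 ± 0.67 at day 2 (adjusted p = 7.27e-05). From the summed counts the level was 276-fold higher at day 6, with a 95% counting interval of 154 to 553, and 471-fold higher at day 2, with an interval of 263 to 944. These intervals cover counting error alone.

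Between the times in cortex, Msr1 was lower at day 6 than at day 2 in all 3 libraries, but the difference was not called (log2 change -0.81 ± 0.38, adjusted p = 0.222). The day 6 libraries differed widely, and without replicate 2 of day 6 the difference was -1.33 with an adjusted p of 0.0142. In skull, Msr1 was at 11.9, 18.2 and 15.8 CPM at day 4, 58.7, 60.9 and 60.9 CPM at day 2 and 6.32, 18.8 and 10.99 CPM in controls. The day 2 libraries stood apart above all others, while day 4 and control libraries overlapped. Msr1 rose at day 2 (2.32 ± 0.34, adjusted p = 1.66e-03) and was lower at day 4 than at day 2 (-1.98 ± 0.34, adjusted p = 5.58e-03). The change at day 4 against control was not called (0.34 ± 0.34, adjusted p = 0.564). Msr1 thus reached similar levels at day 2 in both tissues, a mean of 69.1 ± 6.49 CPM in cortex and 60.2 ± 1.27 CPM in skull (SD, n = 3 each), with control means of 0.149 ± 0.0900 CPM in cortex and 12.1 ± 6.33 CPM in skull. These means were scaled within each tissue and were not tested against each other.

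Cd36, the class B receptor for oxidised lipoprotein and fatty acids (chromosome 5, 17781690 to 17888801), moved in opposite directions in the 2 tissues. It was at 18.7, 93.2 and 55.4 CPM in cortex at day 6, 10.1, 16.2 and 18.7 CPM at day 2 and 1.88, 0.409 and 0.583 CPM in control cortex. All injured libraries lay above all controls, and day 6 replicate 1 was almost level with the highest day 2 library. Cd36 rose at day 6 (5.88 ± 0.83, adjusted p = 5.72e-03) and at day 2 (3.99 ± 0.82, adjusted p = 0.0129). Without control replicate 2 or replicate 3, the adjusted p at day 2 was 0.0523 and 0.064. Endothelial cells are a known source of Cd36, and 5 of 7 endothelial genes rose at day 6 and 6 of 7 at day 2. Their sums were 211 to 265 CPM at day 6, 228 to 388 CPM at day 2 and 139 to 154 CPM in control cortex, and their part in the level of Cd36 was not tested. All day 6 libraries lay above those of day 2, replicate 1 only narrowly, and the difference was not called (1.89 ± 0.64, adjusted p = 0.116; 0.0294 without day 6 replicate 1).

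In skull, Cd36 was at 47.5, 21.0 and 34.1 CPM at day 4, 29.8, 31.9 and 40.1 CPM at day 2 and 95.1, 70.7 and 80.2 CPM in controls. All 6 injured libraries lay below all 3 controls. It fell at day 4 (-1.26 ± 0.27, adjusted p = 0.0269; 0.0502 with no filter on low counts) and at day 2 (-1.27 ± 0.27, adjusted p = 8.04e-03). Cd36 is also known from skeletal muscle, endothelial cells, adipocytes and platelets. The skeletal muscle genes summed to 851, 43.9 and 39.6 CPM at day 4, 4.14, 129 and 707 CPM at day 2 and 2561, 394 and 1729 CPM in controls. Within the controls and within day 2 the libraries had the same order for muscle genes and for Cd36, and at day 4 replicate 1 was highest for both. None of the 5 muscle genes was called at either time. In skull the 7 endothelial genes summed to 709.6 to 804 CPM at day 4, 604 to 716 CPM at day 2 and 627 to 807 CPM in controls. The 5 adipocyte genes in the table summed to 92.4 to 117 CPM at day 4, 61.6 to 77.9 CPM at day 2 and 91.5 to 106.5 CPM in controls. At day 2, 2 of the 7 endothelial genes and 1 of 4 tested adipocyte genes fell, and at day 4 none of either list was called. The 5 platelet genes summed to 383 to 824 CPM at day 4, 219 to 405 CPM at day 2 and 290 to 315 CPM in controls. The 5 erythroid genes summed to 6178 to 8168 CPM at day 4, 1587 to 10299.7 CPM at day 2 and 14488 to 19368 CPM in controls. The part of these cell types in the level of Cd36 was not tested.

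Scarb1, the high-density lipoprotein receptor of the same class (chromosome 5, 125277087 to 125341094), was not called in any comparison between times or with controls within a tissue. Its mean was 20.8 ± 2.01 CPM in cortex at day 6, 23.8 ± 5.15 CPM at day 2 and 20.7 ± 2.503 CPM in control cortex (SD, n = 3 each). The log2 change was 0.00 ± 0.16 at day 6 and 0.20 ± 0.16 at day 2. The 4 oligodendrocyte genes summed to 3249, 3229 and 3251 CPM at day 6 and 2412, 2866 and 4822 CPM at day 2. In control cortex they summed to 3132, 5340 and 4141 CPM. These sums had the library order of Scarb1 within day 2 and within controls, but not within day 6. None of the 4 genes was called at either time, and the part of these cells in the level of Scarb1 was not tested. In skull the means were 47.2 ± 3.90 CPM at day 4, 41.7 ± 2.16 CPM at day 2 and 39.1 ± 6.17 CPM in controls, with log2 changes of 0.27 ± 0.12 and 0.09 ± 0.12. The highest control library overlapped the injured libraries at both times. Without control replicate 2 the change at day 4 was called (0.39, adjusted p = 0.0203).

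Cd68, the phagocyte lysosomal glycoprotein (chromosome 11, 69664213 to 69666153), was at 65.2, 224 and 154.6 CPM in cortex at day 6, 47.1, 72.7 and 56.2 CPM at day 2 and 9.68, 7.33 and 7.83 CPM in control cortex. Injured and control libraries were far apart, and the highest day 2 library lay above the lowest day 6 library. It rose at day 6 (4.16 ± 0.48, adjusted p = 2.26e-03) and at day 2 (2.83 ± 0.47, adjusted p = 4.58e-03). The difference of day 6 from day 2 was not called with edgeR (1.33 ± 0.42, adjusted p = 0.0937), but was with DESeq2 (0.0182), with limma voom (0.0467) and without day 6 replicate 1 (1.31e-03). In skull Cd68 was at 73.9, 129.7 and 121 CPM at day 4, 107, 93.9 and 116 CPM at day 2 and 61.1, 89.9 and 66.8 CPM in controls. The day 2 libraries lay above the controls, yet the changes of 0.58 ± 0.22 at day 4 (adjusted p = 0.132) and 0.54 ± 0.22 at day 2 (adjusted p = 0.0889) were not called. DESeq2 called the change at day 2 (0.0392), edgeR did so without control replicate 2 (0.0363), and without day 4 replicate 1 the change at day 4 was called (0.0260).

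Markers of phagocytes changed as well, not all in the direction of these receptors. In cortex, 7 of 8 microglia genes rose at day 6, and at day 2, 4 rose and 2 fell. Their summed level was 548 to 841 CPM at day 6, 482 to 547 CPM at day 2 and 268 to 309.9 CPM in controls. Border macrophage genes rose in 1 of 6 cases at day 6 and 6 of 6 at day 2, with sums of 16.8 to 40.3 CPM at day 6, 59.9 to 109 CPM at day 2 and 9.78 to 17.3 CPM in controls. Of 5 monocyte genes tested, 1 rose at day 6 and 3 at day 2, with sums of 27.3 to 54.0 CPM, 61.2 to 68.7 CPM and 26.2 to 29.7 CPM in controls. The monocyte gene S100a4 had no count at day 6 or in controls. From day 2 to day 6, 3 of 6 border macrophage genes and 3 of 5 monocyte genes fell and 0 rose. Of the 8 microglia genes, 3 rose and 1 fell between these times. In skull, 4 of 6 monocyte genes rose at day 4 and 5 of 6 at day 2, with sums of 362 to 452 CPM, 335 to 368 CPM and 164 to 195 CPM in controls. Of the 8 microglia genes, 2 rose in skull at day 4, while 4 fell and 0 rose at day 2. Their sums there were 586 to 763 CPM, 444 to 533 CPM and 552 to 555 CPM in controls. The 5 osteoclast genes in skull summed to 1248, 2564 and 2087 CPM at day 4 and 1858, 1469 and 2109 CPM at day 2. In controls their sums were 1195, 1140 and 1150 CPM. Of the osteoclast genes, 2 rose at day 2 and none was called at day 4. Their sums had the library order of Cd68 within day 4 and within day 2, and the reverse order within controls. The part of these cells in the levels of the receptors was not tested.

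Promoter sequences of Cd36 and Cd68 are shown because these genes had nearly the same profile over the 9 cortex libraries, with a Pearson correlation of log2(CPM + 1) of 0.99, while in skull it was -0.86. The points of each correlation share their libraries and the injury contrast. RefSeq entries on build GRCm38.p6 were matched for 6 of the 8 genes and run from 250 bases before to 50 after a start, 5′ to 3′ of the minus strand for both genes. That of Cd36 is chr5:17835847-17836146 and that of Cd68 is chr11:69666121-69666420. The Cd36 window lies inside the annotated gene, whose 5′ end on the minus strand is at 17888801. It thus belongs to an internal start, and no other start of Cd36 was examined. Capitals mark matches, on either strand, to the ETS core GAGGAA, the AP-1 site TGANTCA or the E-box CACGTG. None of the marked matches overlap. The Cd68 window held 2 matches to GAGGAA and 2 to the AP-1 site, and the Cd36 window held 0 matches to any of the 3. The windows of Axl and Mfge8 held 1 match to GAGGAA each, and those of Mertk and Gas6 neither that nor the AP-1 site. Over 32851 promoter windows of this length, 28.3% held GAGGAA, 7.81% the AP-1 site and 7.15% the E-box. A match describes letters and not binding.
Cd36: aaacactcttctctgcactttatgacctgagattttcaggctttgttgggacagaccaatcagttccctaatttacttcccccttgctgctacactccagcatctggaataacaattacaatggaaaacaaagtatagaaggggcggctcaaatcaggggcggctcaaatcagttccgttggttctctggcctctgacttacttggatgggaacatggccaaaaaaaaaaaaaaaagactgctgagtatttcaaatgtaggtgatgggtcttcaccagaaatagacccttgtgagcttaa
Cd68: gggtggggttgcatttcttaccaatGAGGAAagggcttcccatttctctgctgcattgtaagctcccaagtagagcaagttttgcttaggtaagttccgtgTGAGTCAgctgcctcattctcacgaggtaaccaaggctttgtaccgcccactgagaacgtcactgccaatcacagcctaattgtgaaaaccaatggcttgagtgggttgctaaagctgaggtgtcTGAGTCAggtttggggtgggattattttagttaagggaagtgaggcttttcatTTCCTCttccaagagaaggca

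**Figure D2:**
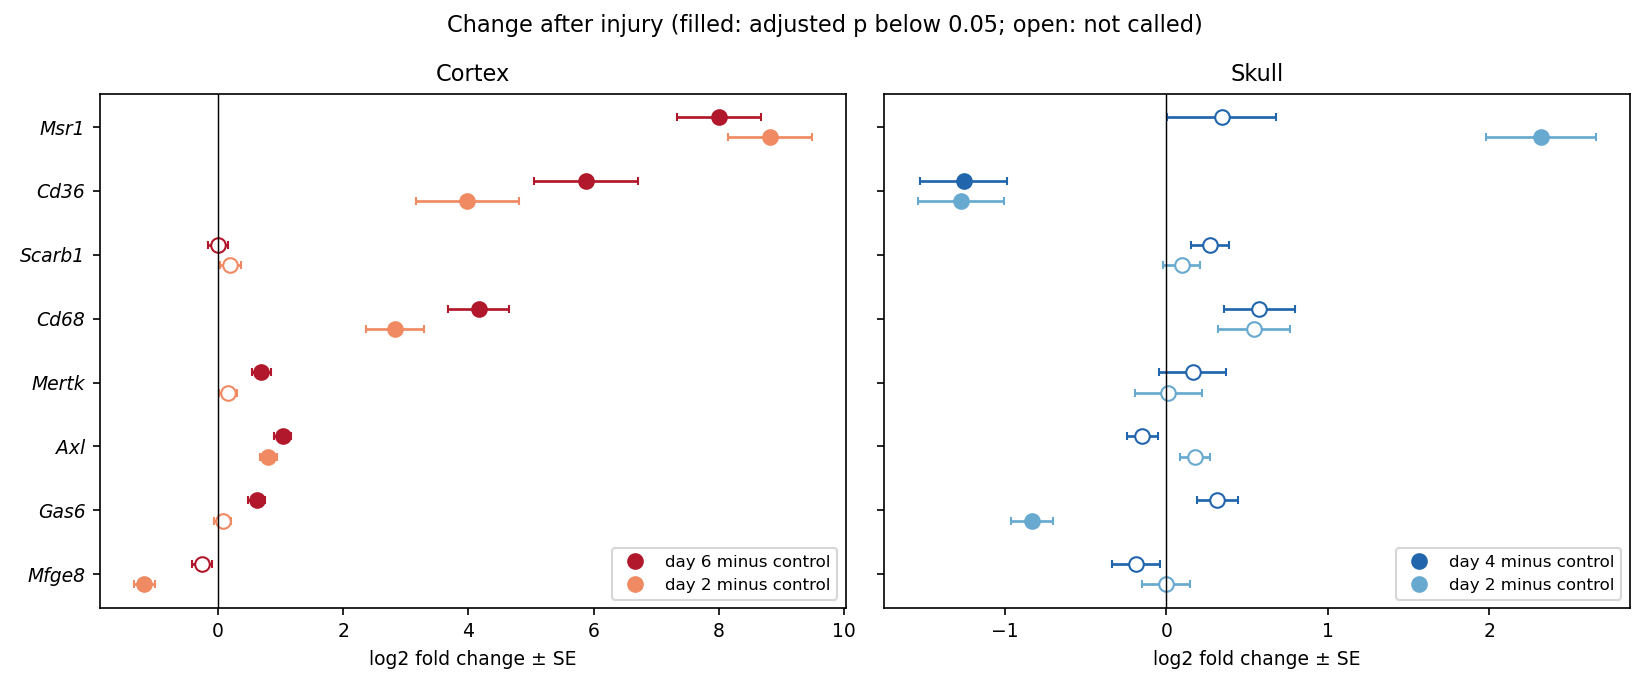
Log2 fold change ± standard error of each gene against control, in cortex (left) and skull (right), with separate horizontal scales. Filled points passed an adjusted p of 0.05 and open points did not. Msr1 changed by 8.01 at day 6 and 8.82 at day 2 in cortex, and Cd36 lies right of 0 in cortex and left of 0 in skull.

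Mertk and Axl are kinases of the TAM family that bind bridged phosphatidylserine. Mertk (chromosome 2, 128698956 to 128802894) was at 33.0, 52.3 and 49.1 CPM in cortex at day 6, 33.1, 30.2 and 29.6 CPM at day 2 and 29.3, 26.2 and 27.6 CPM in control cortex. Day 6 replicates 2 and 3 stood above all other libraries, while replicate 1 lay among those of day 2. Mertk rose at day 6 (0.69 ± 0.15, adjusted p = 8.14e-03) and was higher at day 6 than at day 2 (0.53 ± 0.15, adjusted p = 0.034). The change at day 2 was not called (0.16 ± 0.15, adjusted p = 0.493). Both calls lean on single libraries. Without day 6 replicate 2 the adjusted p against control was 0.057, and without replicate 3 it was 0.0513. The call between times was lost without day 6 replicate 2 (0.128) or replicate 3 (0.146), day 2 replicate 2 (0.0697) or replicate 3 (0.106), and with limma voom (0.0679).

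Axl (chromosome 7, 25757273 to 25788705) was at 78.2, 104 and 92.7 CPM in cortex at day 6, 68.0, 90.4 and 75.9 CPM at day 2 and 50.8, 43.2 and 40.4 CPM in control cortex. All injured libraries lay above all controls, and the 2 times overlapped. It rose by 1.03 ± 0.13 at day 6 (adjusted p = 3.17e-04) and 0.80 ± 0.13 at day 2 (adjusted p = 6.06e-04) on the log2 scale, and the times were not called different (0.23 ± 0.13, adjusted p = 0.290). In every alternative setting tried, both rises of Axl in cortex stayed below 0.05.

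In skull neither kinase was called against control. Mertk averaged 40.7 ± 2.89 CPM at day 4, 36.7 ± 4.51 CPM at day 2 and 36.4 ± 11.4 CPM in controls (SD, n = 3 each), with log2 changes of 0.16 ± 0.21 and 0.01 ± 0.21. The 3 control libraries ranged from 24.3 to 46.9 CPM and covered all injured ones. Axl was at 133, 124 and 119 CPM at day 4, 152, 140.5 and 178 CPM at day 2 and 136, 144 and 135.9 CPM in controls. The day 4 libraries lay just below the controls and the day 2 libraries overlapped them. Axl was lower at day 4 than at day 2 (-0.33 ± 0.10, adjusted p = 0.0375), but this call was lost without any 1 day 4 library (0.0525 to 0.129), without day 2 replicate 1 (0.0733) or replicate 3 (0.132) and with a replicate block (0.0791).

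Gas6, the ligand of both kinases (chromosome 8, 13465374 to 13494490), was at 97.0, 137 and 129 CPM in cortex at day 6, 72.9, 98.6 and 77.4 CPM at day 2 and 80.8, 73.4 and 81.5 CPM in control cortex. Day 6 libraries lay above all controls, and day 2 libraries overlapped both. Gas6 rose at day 6 against control (0.62 ± 0.14, adjusted p = 0.0103) and against day 2 (0.54 ± 0.14, adjusted p = 0.0226), and was not called at day 2 (0.08 ± 0.14, adjusted p = 0.738). Against control the call was lost without day 6 replicate 2 (0.0618), day 6 replicate 3 (0.0565) or control replicate 2 (0.0575). Against day 2 it was lost without day 6 replicate 2 (0.0789) or replicate 3 (0.102) and without day 2 replicate 1 (0.0756) or replicate 3 (0.0812). Fibroblast sums in cortex, given above, had the same order over the 3 day 6 libraries as Gas6. Phagocyte marker sums had that order too, and the part of these cells in its level was not tested. In the annotation 34 bases, or 1.33%, of the exons of Gas6 overlap exons of Tmem255b.

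In skull Gas6 was at 375, 402 and 390.4 CPM at day 4, 174, 213 and 139.9 CPM at day 2 and 323, 305 and 309.6 CPM in controls. The 3 groups did not overlap, with day 2 lowest and day 4 highest. Gas6 fell at day 2 (-0.83 ± 0.13, adjusted p = 1.37e-03) and was higher at day 4 than at day 2 (1.15 ± 0.13, adjusted p = 5.56e-04). Against control the day 4 change was not called (0.32 ± 0.13, adjusted p = 0.144). Fibroblast genes, 5 in all, summed to 62353 to 85833 CPM at day 4 and 37232 to 47295 CPM at day 2. Their control sums were 27915 to 56145 CPM. Border macrophage genes, 6 in all, summed to 385 to 482 CPM at day 4 and 230.3 to 301 CPM at day 2. In controls they summed to 346 to 352 CPM, so that these sums did not overlap between the groups either. Within day 2 they had the library order of Gas6, but not within day 4 or the controls. The part of these cells in the level of Gas6 was not tested.

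Mfge8, the integrin-binding bridge (chromosome 7, 79133768 to 79149060), was at 150.2, 123 and 134 CPM in cortex at day 6, 80.9, 76.0 and 57.3 CPM at day 2 and 202, 151 and 131 CPM in control cortex. The 3 libraries of day 2 lay below the 6 others, and those of day 6 overlapped the controls. Mfge8 fell at day 2 (-1.18 ± 0.17, adjusted p = 3.72e-04) and was higher at day 6 than at day 2 (0.92 ± 0.17, adjusted p = 5.20e-03). The day 6 change against control was not called (-0.25 ± 0.16, adjusted p = 0.396). Astrocytes are a known source of Mfge8 in brain. Of 5 astrocyte genes, 3 rose and 1 fell at day 2, with sums of 5768 to 6535 CPM at day 2 and 4154 to 4779 CPM in controls. All 5 neuronal genes fell at day 2, with sums of 3803 to 4777 CPM against 5750.1 to 7691 CPM in controls, and the part of these cells in the level of Mfge8 was not tested. In skull Mfge8 averaged 113 ± 9.81 CPM at day 4, 129 ± 6.60 CPM at day 2 and 129 ± 30.7 CPM in controls (SD, n = 3 each) and was not called.

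Between the times, 3 of the 8 genes differed in cortex, all higher at day 6 than at day 2, Mertk, Gas6 and Mfge8, where 11.6% of all genes were called, 5.3% upward and 6.26% downward. Only 1 was called without day 6 replicate 3 or without day 2 replicate 3, and 5 were called without day 6 replicate 1. The libraries of the times did not overlap for 3 genes, against 30.5% of all genes. In skull 3 genes differed between day 4 and day 2, Gas6 higher and Msr1 and Axl lower at day 4, where 21.6% of all genes were called. The libraries did not overlap for 5 genes, against 42.6% of all genes.

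Ratios of counts within a library are free of depth and of scaling. With 3 libraries against 3, an exact permutation test cannot go below a p of 0.1, so these are given as descriptions. Msr1 per count of Cd68 was 0.277, 0.278 and 0.242 in cortex at day 6, 1.405, 1.05 and 1.15 at day 2 and 0.026, 0.0152 and 0.0106 in control cortex. The 3 groups were apart, and the day 6 libraries were close to each other although their levels of both genes differed. In skull the same ratio was 0.130 to 0.161 at day 4, 0.523 to 0.649 at day 2 and 0.103 to 0.210 in controls, so that day 2 stood apart in bone as well. Cd36 per count of Cd68 was 0.288 to 0.416 in cortex at day 6, 0.215 to 0.333 at day 2 and 0.0558 to 0.195 in controls. In skull it was 0.162 to 0.642 at day 4, 0.278 to 0.345 at day 2 and 0.787 to 1.56 in controls.

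For the efferocytosis genes, Axl per count of Mertk was 1.89 to 2.37 in cortex at day 6, 2.06 to 2.99 at day 2 and 1.46 to 1.73 in controls. Injured and control cortex did not overlap. In skull the ratio was 2.82 to 3.33 at day 4, 3.64 to 5.12 at day 2 and 2.91 to 5.95 in controls, and the controls covered nearly all injured libraries. Gas6 per count of Mfge8 was 0.646 to 1.12 in cortex at day 6, 0.901 to 1.35 at day 2 and 0.400 to 0.624 in controls. All injured cortex libraries thus lay above the controls. In skull this ratio was 3.31 to 3.68 at day 4, 1.10 to 1.57 at day 2 and 1.88 to 3.17 in controls, with no overlap between the groups.

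**Figure D3:**
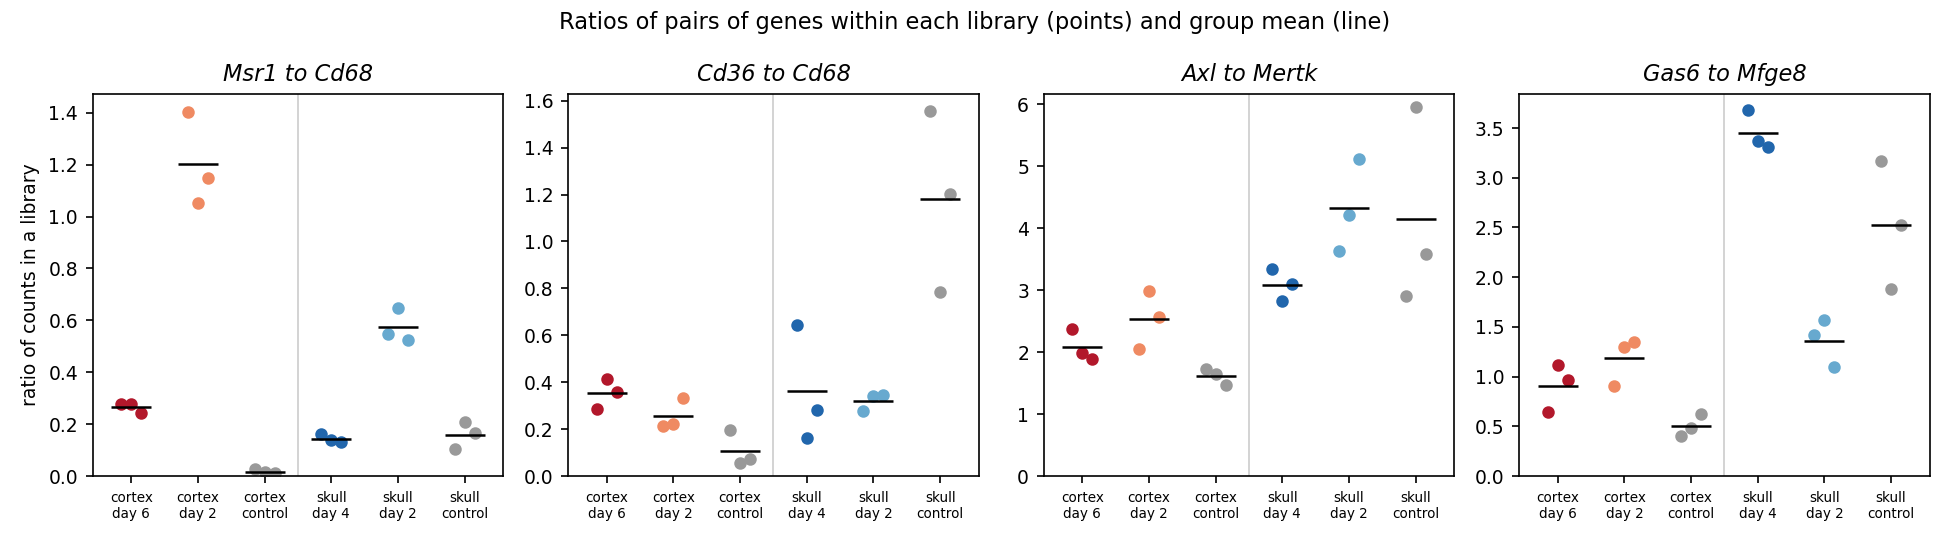
Ratio of the counts of 2 genes within each library (points) with the mean of 3 libraries (line), on linear axes from 0. Msr1 to Cd68 was 1.05 to 1.405 in cortex at day 2, above every other library, and Gas6 to Mfge8 was 1.10 to 1.57 in skull at day 2, below all other skull libraries.

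The day 2 response was compared between tissues with an interaction test, in which 17.6% of 18863 genes were called, 14% higher in cortex and 3.6% higher in skull. Of the 8 genes, 5 had a more positive change in cortex and 1, Mfge8, a more negative one. The difference was 6.54 ± 0.56 for Msr1 (adjusted p = 4.94e-05), 5.31 ± 0.56 for Cd36 (adjusted p = 1.90e-04) and 2.33 ± 0.26 for Cd68 (adjusted p = 1.70e-04) on the log2 scale. It was 0.97 ± 0.21 for Gas6 (adjusted p = 8.88e-03), which fell in skull and was not called in cortex, and -1.12 ± 0.27 for Mfge8 (adjusted p = 0.015). Axl differed by 0.68 ± 0.18 (adjusted p = 0.0235), but leaving out any 1 of 6 libraries ended this call (0.0513 to 0.0613), namely cortex control replicates 2 and 3, cortex day 2 replicate 2, skull control replicate 3 and skull day 2 replicates 1 and 2. Scarb1 (0.16 ± 0.23) and Mertk (0.21 ± 0.28) were not called. The median over all genes in this comparison was 0.20, so that small differences are to be read against that shift. Without skull control replicate 3, 2185 genes were called in place of 3313.

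Between control groups, 6 of the 8 genes were lower in cortex than in skull and none was higher, where 70.9% of 18173 genes were called, 36.4% lower in cortex. The libraries did not overlap for 6 genes, against 76.7% of all genes. Scaled together over these 6 libraries, Cd36 averaged 0.967 ± 0.814 CPM in control cortex and 84.6 ± 13.9 CPM in control skull (log2 difference -6.46 ± 0.51, adjusted p = 8.09e-05). Msr1 averaged 0.15 ± 0.0909 CPM in control cortex and 12.4 ± 6.29 CPM in control skull (-6.32 ± 0.59, adjusted p = 7.46e-05). Cd68 differed by -3.16 ± 0.18, Gas6 by -2.03 ± 0.09, Axl by -1.67 ± 0.10 and Scarb1 by -0.95 ± 0.14. Mertk averaged 27.9 ± 1.58 CPM in control cortex and 37.6 ± 12.3 CPM in control skull and was not called (-0.43 ± 0.24, adjusted p = 0.144). Without skull control replicate 2, the lowest for Mertk, it was called (-0.67, adjusted p = 1.54e-03). Mfge8 averaged 162 ± 37.4 CPM in control cortex and 132 ± 29.3 CPM in control skull and was not called (0.29 ± 0.21, adjusted p = 0.256).

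Levels of different genes were compared per kilobase of exon, from the exons of GENCODE M21. In control cortex the bridging proteins led, with Mfge8 at 34.4 ± 7.85 and Gas6 at 30.8 ± 1.75 CPM per kilobase (SD, n = 3 each), which overlapped. Axl followed at 8.89 ± 1.07, Cd68 at 6.58 ± 0.98 and Mertk at 6.39 ± 0.36 CPM per kilobase, with Cd68 and Mertk overlapping. Cd36 and Msr1 came last at 0.267 ± 0.225 and 0.0234 ± 0.0142. At day 2 the order in cortex was Cd68, Gas6, Axl, Mfge8, Msr1, Mertk, Cd36 and Scarb1, from 46.7 ± 10.3 to 2.80 ± 0.61 CPM per kilobase. Neighbours overlapped for Cd68 and Gas6, for Axl and Mfge8 and for Cd36 and Scarb1. At day 6 Cd68 was at 118 ± 63.4 CPM per kilobase, overlapping Gas6 at 47.4 ± 8.25. In skull Gas6 led at day 4 with 153 ± 5.44 and in controls with 123 ± 3.69 CPM per kilobase, while at day 2 it was at 68.9 ± 14.3 and overlapped Cd68 at 84.2 ± 8.96.

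The other genes of the pathway were taken from 6 lists of 91 genes in all, chosen with earlier results of these data known. In cortex, 46 of 88 tested rose and none fell at day 6, and 45 rose and 6 fell at day 2, with a median log2 change of 0.53 and 0.65 against -0.02 and 0.00 over all genes. In skull, 23 of 90 rose and 3 fell at day 4, and 29 rose and 20 fell at day 2, with medians of 0.20 and 0.13 against 0.02 and -0.01. The shares of all genes called are those given above for each comparison. The skull counts at day 4 rest on single libraries, as a repeat chosen after seeing the data shows. Without control replicate 3, none of the 90 genes was called at day 4. At day 4, 4 rose and 1 fell without day 4 replicate 3, and 12 rose and 1 fell without day 4 replicate 2 or without control replicate 1. Every call at day 4 in skull named below was therefore lost without control replicate 3, and 2 of the 12, Adgrb1 and Itgb3, were called without day 4 replicate 3. At day 2 in skull the repeat gave 19 to 29 higher and 14 to 21 lower, and at least 10 of the 12 named genes stayed called. In cortex the repeat gave 38 to 46 higher and 0 lower at day 6, and 40 to 47 higher and 3 to 7 lower at day 2.

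Among other scavenger receptors, 9 of 17 tested rose in cortex at each time and none fell. Cd5l, a secreted macrophage protein with scavenger receptor domains, had no count in control cortex and was at least 63.2-fold higher at day 6 and 67.1-fold higher at day 2, taking 3 counts over the control group as the floor. Clec7a, a lectin receptor for glucans, rose by 6.75 ± 0.44 at day 6 and 4.32 ± 0.45 at day 2 on the log2 scale, and Lgals3, a galactose-binding lectin of macrophages, by 6.63 ± 0.75 and 5.48 ± 0.74. In skull 3 of 18 rose at day 4, and 2 rose and 6 fell at day 2. Olr1, a receptor for oxidised lipoprotein, rose at both times (1.16 ± 0.27 and 1.22 ± 0.27), Clec7a rose at day 4 (0.81 ± 0.18) and Cd209a, a lectin of dendritic cells, fell at day 2 (-2.74 ± 0.48). In skull the border macrophage markers, which include the scavenger receptors Mrc1 and Cd163 of this list, fell in 3 of 6 cases at day 2, with sums of 230.3 to 301 CPM at day 2 and 346 to 352 CPM in controls.

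Among other phosphatidylserine receptors and bridging proteins, 13 of 18 tested rose in cortex at day 6, and 12 rose and 1 fell at day 2. Cd300lf and Cd300lb, myeloid receptors of the CD300 family, led at both times. Cd300lf had 4 counts in control cortex and was 124-fold higher at day 6 (95% counting interval 47.9 to 457) and 264-fold higher at day 2 (103 to 972). Cd300lb had 2 counts in control cortex and was 168-fold higher at day 6 (95% counting interval 46.0 to 1395) and 121-fold higher at day 2 (33.1 to 1009). In skull 4 of 19 rose and 1 fell at day 4, and 9 rose and 6 fell at day 2. Itgb3, an integrin subunit of platelets and osteoclasts, rose at day 4 (1.37 ± 0.15). Adgrb1, a phosphatidylserine receptor that is also abundant in neurons, fell at day 4 (-2.01 ± 0.26) and day 2 (-2.64 ± 0.27) beside the lower sum of neuronal genes in injured skull given above. Timd4, a phosphatidylserine receptor of resident macrophages, fell at day 2 (-1.17 ± 0.38, adjusted p = 0.0376), a call that was lost without any 1 of the 6 libraries.

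The closest relatives of the kinases and of Gas6, Tyro3 and Pros1, were picked after their values were seen. Tyro3, the third kinase of the family and mainly neuronal in brain, was at 213, 191 and 217 CPM in cortex at day 6, 116, 146 and 145 CPM at day 2 and 194, 263 and 239 CPM in control cortex. The day 2 libraries lay below all others. It fell at day 2 (-0.77 ± 0.12, adjusted p = 4.65e-04) and was not called at day 6 (-0.16 ± 0.12, adjusted p = 0.468). Pros1, the anticoagulant protein S and a ligand of these kinases, was at 25.3, 55.2 and 33.1 CPM at day 6, 62.0, 74.7 and 69.2 CPM at day 2 and 15.4, 10.6 and 9.66 CPM in control cortex. It rose at day 6 (1.68 ± 0.29, adjusted p = 5.79e-03) and day 2 (2.53 ± 0.29, adjusted p = 2.82e-04), with no overlap of injured and control libraries. In skull Pros1 was at 128, 146 and 125 CPM at day 4, 232, 207 and 267 CPM at day 2 and 129, 137 and 129.7 CPM in controls. It rose at day 2 (0.84 ± 0.10, adjusted p = 4.66e-04), the time at which Gas6 was lowest in skull.

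Of 15 genes of engulfment signalling, 4 rose in cortex at day 6, and 5 rose and 3 fell at day 2. The haematopoietic GTPase Rac2 (3.40 ± 0.40 at day 6, 3.76 ± 0.40 at day 2) and its activator Dock2 (2.60 ± 0.30 and 2.80 ± 0.30) led. In skull 7 rose at day 4, among them Rac2 (1.00 ± 0.24) and the exchange factor Vav1 (0.78 ± 0.16), and 3 rose at day 2, among them the adaptor Crk (0.41 ± 0.08) and Rac1 (0.35 ± 0.07). Rac2 and Vav1 are also made by neutrophils, and neutrophil markers rose in 5 of 6 cases in skull at day 4, with sums of 2626 to 4731 CPM at day 4 and 853 to 1487 CPM in controls. Their part in these changes was not tested.

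Of 15 find-me and do-not-eat-me signals, 6 rose at each time in cortex and 1 fell at day 2. The nucleotide receptors P2ry2 (2.54 ± 0.54 at day 6, 3.05 ± 0.53 at day 2) and P2ry6 (2.24 ± 0.31 and 2.15 ± 0.31) led. In skull 5 rose and 1 fell at day 4, and 6 rose and 2 fell at day 2. Cd200r1, an inhibitory receptor of myeloid cells, rose at day 4 (0.68 ± 0.19, adjusted p = 0.0496), and Cx3cl1, the ligand released by dying cells and by neurons, fell (-0.73 ± 0.18). The fall of Cx3cl1 stood beside the lower sum of neuronal genes in injured skull given above, and the part of neurons in it was not tested. At day 2 the ligand's receptor Cx3cr1 (-1.25 ± 0.12) and the surface glycoprotein Cd24a (-1.18 ± 0.27) fell.

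Of 17 genes of lipid sensing and export, 11 rose in cortex at day 6 and none fell, and 8 rose and 1 fell at day 2. Plin2, a coat protein of lipid droplets, averaged 127 ± 61.1 CPM at day 6, 85.5 ± 26.3 CPM at day 2 and 6.503 ± 0.66 CPM in control cortex (log2 change 4.28 ± 0.47 and 3.71 ± 0.46). Fabp4, a fatty acid carrier, had 3 counts in control cortex and was 116-fold higher at day 6 (95% counting interval 39.1 to 565) and 27.1-fold higher at day 2 (8.85 to 135), a call lost without day 2 replicate 2 or control replicate 2. In skull 3 rose at day 4, among them the transporter Abca7 (0.74 ± 0.14) and the fatty acid carrier Fabp5 (0.74 ± 0.21, adjusted p = 0.0488). At day 2, 5 rose and 5 fell, and Fabp5 rose by 1.55 ± 0.21 while the lipid carrier Apoe fell by 1.29 on the log2 scale. Of 6 genes of receptor shedding, which cut Mertk and Axl from the surface or regulate that step, 3 rose in cortex at day 6 and 5 at day 2, led by Rhbdf2 (2.59 ± 0.40 and 2.93 ± 0.40) and Rhbdf1 (0.87 ± 0.17 and 1.24 ± 0.17), partners of the protease Adam17. In skull 1 rose, Adam10 (0.30 ± 0.08), and 1 fell, Timp3 (-0.35 ± 0.10, adjusted p = 0.0461), at day 4. At day 2, 4 rose and 1 fell, with Adam9 (1.23 ± 0.10) and Rhbdf2 (0.54 ± 0.18, adjusted p = 0.0446) in front. The call of Rhbdf2 held only without control replicate 2 when each of the 6 libraries was left out.

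**Figure D4:**
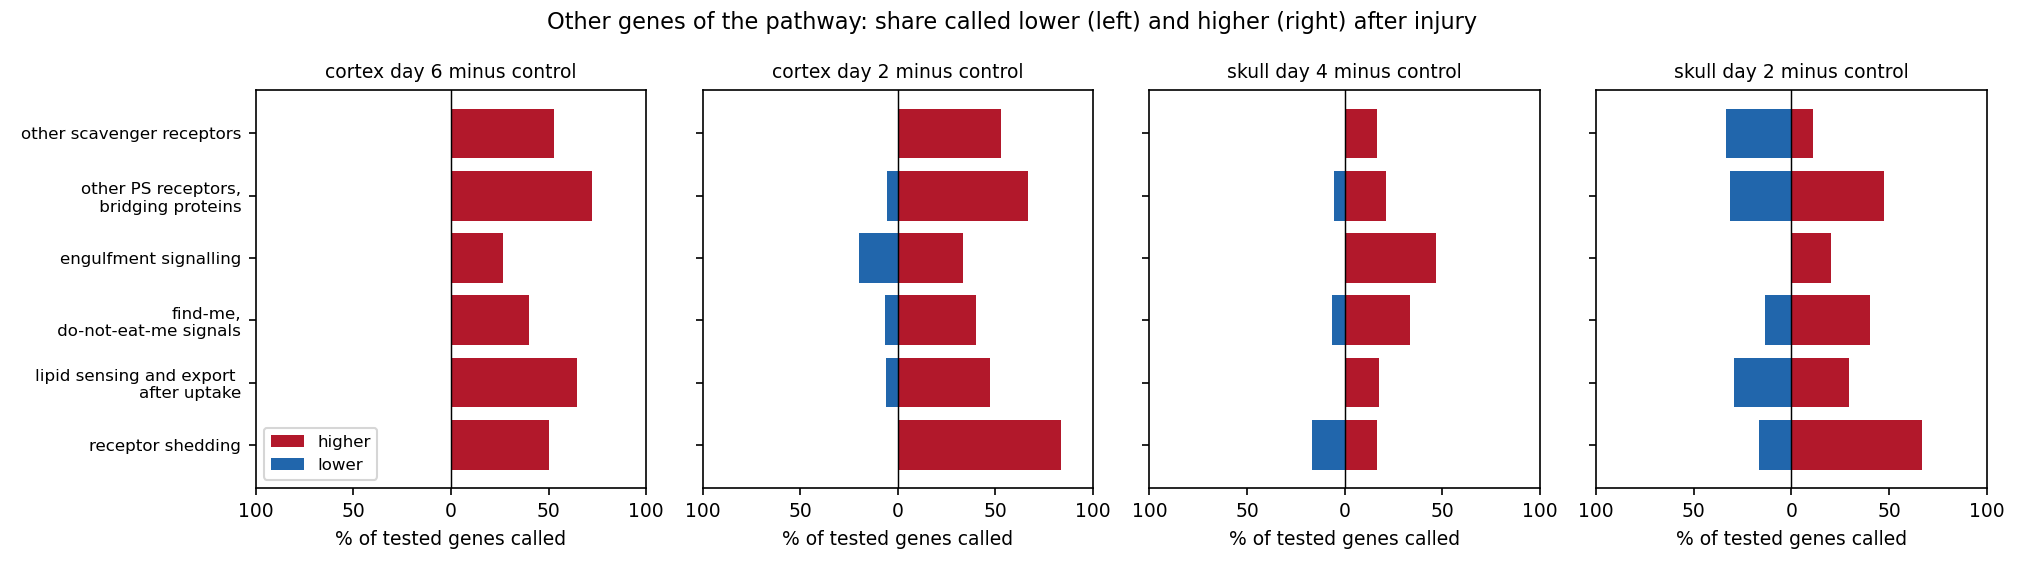
Share of the tested genes of 6 lists called higher (right of 0) and lower (left of 0) in each comparison with control. At day 6 in cortex none of the 88 genes lies on the lower side, while in skull at day 2 other scavenger receptors had 2 higher and 6 lower of 18.

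The genes with the most similar profile were sought by Pearson correlation of log2(CPM + 1) over the 9 libraries of a tissue, which share the injury contrast, among genes of at least 5 CPM on average, leaving out unnamed loci. In cortex these were Ptprc, Lcp2 and Ms4a6d for Msr1 (r of 1.00 each), Ctss, Cd68 and Rgs1 for Cd36 (0.99 each), and Ctss, Rgs1 and Grn for Cd68 (1.00 each). For Axl they were Sparc, Cyth4 and Cyba (0.99 each), for Mertk they were Mmp13 (0.97), Atp6v0d2 and Selenop (0.96 each), and for Gas6 they were Man1c1, Ski and Eln (0.98 each). For Mfge8 they were Syt7, Ddx25 (0.98 each) and Kcnb2 (0.97), and for Scarb1 they were Adamts4 (0.97), Myrf and Pacs2 (0.92 each). In skull they were Rad18, Cenpi and Snrpd1 for Msr1 (0.99 each), Zfp287 (0.98), Ank3 (0.97) and Fam219a (0.96) for Cd36, and Chrdl1 (0.99), Stab1 and Mdk (0.98 each) for Gas6. For Cd68 they included Slc37a2 (0.98) and Csf2rb (0.97), for Axl they were Nek1 (0.98), Cebpz (0.97) and Cul5 (0.95), and for Mertk they were Smad5 (0.97), Bcas2 (0.96) and Sytl2 (0.95). For Scarb1 they were Aldh3b1, Lrrc25 (0.95 each) and Prr13 (0.94), and for Mfge8 they were Saal1 (0.95), Mpi and Timm22 (0.94 each). Of the 8 genes described here, 1 was among the 3 nearest of another, Cd68 for Cd36 in cortex.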

How the data were processed

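The 18 libraries form 6 groups of 3, and were made with a NEBNext kit, per the labels' protocols. HISAT2 2.1.0 and the build mm10 appear in the submitters' processing notes. Which program and annotation gave the counts, and whether strand was used, is not given in the sources used here. Values in the authors' deposited file are raw counts per gene. It had 26783 lines, of which 865 were identical copies and were removed.

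Cortex and skull had separate fits of 9 libraries, in R 4.3.3 with edgeR 4.0.16 (filterByExpr, TMM, robust quasi-likelihood, two-sided). The day 2 responses were compared by an interaction over 12 libraries and the controls over 6. The standard error is the fitted change over the square root of its F. The procedure was tested on simulated data. Alternatives were RLE factors, no filter, DESeq2 1.42.0, limma 3.58.1 voom, a replicate block and leaving out each library. The genes and lists were chosen with earlier results of these data known. The rule for named genes took all members, per list the 2 called genes with the largest change against control, and for each member the 3 genes with the highest correlation. Exceptions are stated where they stand, and 1 gene of the last kind is not reported here.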

Additional observations from a re-analysis of the deposited data

Results flagged for a closer look

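The changes at day 2 differed between cortex and skull, by the interaction test, for 6 genes. The log2 difference, cortex minus skull, was 6.54 for Msr1, 5.31 for Cd36, 2.33 for Cd68, 0.97 for Gas6, 0.68 for Axl and -1.12 for Mfge8. The call of Axl was lost without any 1 of 6 of the 12 libraries (adjusted p up to 0.0613, edgeR). Cd36 rose in cortex and fell in skull, Msr1 rose in both, and Cd68 rose in cortex while its change in skull was not called. Groups of 3 are too small for the search for single outlying libraries, which was not run.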

How the results depend on the processing

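Of 752 recomputed log2 changes of the 8 genes, 710 kept their direction and their side of the threshold, 32 lost their call, 10 gained one and none of the called values reversed. The comparison of skull at day 4 with control moved most. There 0 of the 8 genes were called with no filter on low counts, against 1 with it, and the number of all genes called was 2834 with DESeq2 and 765 with the replicate block, against 1853. Leaving out 1 library at a time gave 10 to 2537 genes and 0 to 2 of the 8. The same step gave 1005 to 2091 genes for cortex at day 6 against control (1873 with all), 910 to 1948 for day 6 against day 2 (2099 with all) with 1 to 5 of the 8, 2260 to 3057 for skull at day 4 against day 2 (3772 with all) and 2185 to 3979 for the interaction (3313 with all). Counts moved by over 1.5 times in cortex at day 6 against control without day 6 replicate 2 (1005) or 3 (1131) or control replicate 2 (1156) or 3 (1138). They did so for day 6 against day 2 without day 6 replicate 1 (1273) or 3 (910) or day 2 replicate 3 (1245), and for skull at day 4 against day 2 without day 4 replicate 1 (2294) or 3 (2260) or day 2 replicate 1 (2354) or 3 (2299). The cause was not tested. Libraries of the same number did not deviate together in every pair of groups. Their deviations from the group mean correlated at 0.20, -0.02 and 0.39 between cortex day 2 and control. Between skull day 4 and day 2 the values were -0.56, -0.17 and -0.40. With 3 libraries a group this cannot settle whether the numbers pair the libraries. Among the 8 genes the block ended only the call of Axl between skull times (adjusted p = 0.0791, edgeR). Depth limits Msr1 in control cortex, with 11 counts over 3 libraries.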
